A study of Mus musculus with 2 samples.

Results

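Proteoglycans are core proteins that carry long, charged sugar chains, and 10 genes for such cores were examined among the 32285 genes counted in Cajal-Retzius (CR) cells of the postnatal mouse hippocampus. The 10 genes were selected on measured values, their levels by genotype and by *Etv4* and *Etv5* detection in these same libraries, so every difference in them is given here as a description. They are the lecticans *Acan*, *Bcan*, *Ncan* and *Vcan*, the membrane-spanning chondroitin sulfate proteoglycans *Cspg4*, *Cspg5* and *Ptprz1*, and the syndecans *Sdc2*, *Sdc3* and *Sdc4*, which carry mainly heparan sulfate. Chondroitin sulfate proteoglycans fill much of the matrix between brain cells, bind hyaluronan and tenascins, and limit the growth of axons. Heparan sulfate proteoglycans hold growth factors such as FGFs at the cell surface and help them reach their receptors. CR cells are transient neurons that secrete reelin, and capicua (CIC) is a transcriptional repressor whose best known target genes include *Etv4* and *Etv5*.

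The control library came from *ΔNp73-Cre; Cic flox/+; tdT* mice, which lack 1 *Cic* allele in CR cells, and the knockout library from their *ΔNp73-Cre; Cic flox/flox; tdT* littermates. Both groups carry the Cre allele and the tdT reporter, the Cre acts in CR progenitors from the embryo on, and the study found CIC lost from only a part of the targeted CR cells. At postnatal day 14, tdT-positive, DAPI-negative hippocampal cells of 3 male and 1 female controls and of 2 male and 2 female knockouts were sorted after papain dissociation and pooled into 1 library per genotype. With 1 library per genotype no difference has a replicate check, no test was possible, and each 95% interval below covers counting error only.

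CR barcodes were those with at least 2000 UMIs (unique molecular identifiers, a tag that lets each captured molecule be counted once) and at least 5 *Reln* UMIs. They numbered 1003 in the control (median 6224 UMIs) and 390 in the knockout (median 6664 UMIs), and no barcode was in both. All 8 CR markers, among them *Reln*, *Trp73* and *Lhx1*, had a UMI in at least 25% of these barcodes in both libraries. *Reln* was part of the rule that chose the barcodes, so its detection in them was fixed in advance. *Reln* stood at 8176 CPM (counts per 1000000 UMIs, leaving out mitochondrial and ribosomal protein genes) in the control and at 7873 CPM in the knockout. Few barcodes lay near the limits. In the control, 18 had 1500 to 1999 UMIs, and in the knockout 4 did, while 1 deep barcode in each library held exactly 4 *Reln* UMIs. *Cic* itself gave 389 UMIs (58.9 CPM) in the control and 142 UMIs (51.3 CPM) in the knockout, a ratio of 0.871 (0.714 to 1.06). These tags do not show whether the floxed exons were present, so they check nothing. *Etv4* rose from 1.97 CPM in control to 70.9 CPM in knockout barcodes. *Etv5* was at 15 and 70.9 CPM, and both follow the labels.

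The positions and sequences that follow describe the genes themselves, not the tags that were counted. All 10 genes have Ensembl identifiers found in GENCODE M21, whose positions are on GRCm38, the build that the methods name. The serine-glycine pair is the usual attachment site for these chains, and the coding sequences differ widely in how many they hold. *Acan* (chr7:79053483-79115099) has 122 serine-glycine codon pairs in 2132 codons, *Vcan* (chr13:89655312-89742509) has 30 in 3354, *Ncan* (chr8:70093085-70120873) has 13 in 1268 and *Bcan* (chr3:87987531-88000230) has 7 in 883. Among the membrane-spanning cores, *Ptprz1* (chr6:22875502-23052916) has 20 pairs in 2312 codons, *Cspg4* (chr9:56865033-56899870) has 12 in 2327 and *Cspg5* (chr9:110243783-110262576) has 3 in 569. The syndecans are the shortest cores, with 3 pairs in the 202 codons of *Sdc2* (chr15:32920723-33034935), 8 in the 442 of *Sdc3* (chr4:130792537-130826319) and 3 in the 198 of *Sdc4* (chr2:164424247-164443887). Exons of *Sdc3* overlap those of *Gm12970* and *Gm26716* on the other strand. *Gm26716* had 14 control and 5 knockout UMIs and *Gm12970* had 0 in both, and since the sources used here do not say whether strand was counted, the values of *Sdc3* carry that uncertainty.

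The syndecans are a family by their short inner tail, whose last residues bind PDZ proteins such as CASK and syntenin. The coding bases of that tail, up to the stop codon, are shown for the 3 genes, which share part of them. In CR cells *Sdc4* had a far lower level than *Sdc2* and *Sdc3*. Capitals mark bases identical in all 3 genes, 24 of the first 30 and 9 of the last 12, and the stretch between, which differs in length, is in lower case.
Sdc2: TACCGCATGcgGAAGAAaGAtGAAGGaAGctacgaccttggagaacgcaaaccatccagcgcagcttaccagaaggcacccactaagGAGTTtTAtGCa
Sdc3: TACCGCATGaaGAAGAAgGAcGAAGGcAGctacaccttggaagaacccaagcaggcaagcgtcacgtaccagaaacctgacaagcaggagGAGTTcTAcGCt
Sdc4: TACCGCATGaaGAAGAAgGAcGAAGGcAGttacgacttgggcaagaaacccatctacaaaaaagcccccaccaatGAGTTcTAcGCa

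For 8 of the 10 genes the RefSeq promoter table (GRCm38.p6) held a sequence, and *Cspg5* and *Sdc2* were not in it. The 250 bases before the start are shown for *Cspg4*, *Sdc3* and *Vcan*, the 3 genes whose knockout-to-control interval lay above 1. The share of all genes with such an interval was not counted. The motifs searched, on both strands, were the CIC octamers (TGAATGAA, TGAATGGA, TCAATGAA or TCAATGGA), the ETS core (CCGGAA) and the GC box (GGGCGG). In capitals are the matches, which here are all GC boxes.
Cspg4 (chr9:56864854-56865103, plus strand): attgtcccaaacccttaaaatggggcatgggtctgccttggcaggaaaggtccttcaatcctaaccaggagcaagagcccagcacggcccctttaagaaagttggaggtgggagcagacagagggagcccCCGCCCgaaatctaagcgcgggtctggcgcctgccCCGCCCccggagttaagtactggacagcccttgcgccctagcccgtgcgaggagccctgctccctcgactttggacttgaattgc
Sdc3 (chr4:130792287-130792536, plus strand): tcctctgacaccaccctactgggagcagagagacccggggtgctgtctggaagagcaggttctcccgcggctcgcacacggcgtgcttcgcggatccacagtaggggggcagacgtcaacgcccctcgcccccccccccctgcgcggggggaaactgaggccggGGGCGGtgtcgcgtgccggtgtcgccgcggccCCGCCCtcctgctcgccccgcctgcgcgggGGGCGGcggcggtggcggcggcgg
Vcan (chr13:89742513-89742762, minus strand): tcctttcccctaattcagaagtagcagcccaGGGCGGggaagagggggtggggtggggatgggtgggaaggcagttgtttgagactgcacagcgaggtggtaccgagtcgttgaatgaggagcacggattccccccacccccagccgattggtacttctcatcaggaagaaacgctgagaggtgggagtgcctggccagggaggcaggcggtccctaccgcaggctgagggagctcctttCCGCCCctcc
None of the 8 windows held a CIC octamer, which 3.19% of 32851 promoter windows of this length hold. An ETS core stood only in the window of *Sdc4*, at 1 place, and 12% of all windows hold one. GC boxes were in all 8, from 1 in *Ncan* and *Bcan* to 4 in *Sdc4*, and in 32.7% of all windows. A match is a description of letters, and a missing match says nothing of binding elsewhere.

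In CR cells 6 of the 10 genes, *Sdc3*, *Sdc2*, *Cspg4*, *Ncan*, *Cspg5* and *Vcan*, gave 96.9% of the UMIs of the set in the control and 98.3% in the knockout. *Acan*, *Bcan*, *Ptprz1* and *Sdc4* were rare, and most *Bcan* and *Ptprz1* UMIs came from 1 control barcode with astrocyte markers. Together the 10 genes gave 266.4 CPM in the control and 303.7 in the knockout. At least 1 of them had a UMI in 76.1% of control and 79.5% of knockout barcodes, the median barcode held 1 of them, and the richest held 7. After every barcode was thinned to 2000 UMIs, 57.5% of control and 57.2% of knockout barcodes held none. Levels are UMIs at the 3′ end of transcripts and were not divided by length, so they are compared across genes only as UMI counts.

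Of the membrane-spanning chondroitin sulfate proteoglycans, *Cspg4*, the NG2 proteoglycan known from oligodendrocyte precursors and pericytes, had the most UMIs. It gave 396 UMIs in 304 of the 1003 control barcodes, which is 60.0 CPM (54.2 to 66.2). In the knockout it gave 215 UMIs in 148 of 390 barcodes, or 77.7 CPM (67.7 to 88.8). The *Cspg4* UMIs were spread over many CR barcodes, with at most 4 in a control and 6 in a knockout barcode, and the share with a UMI was 30.3% and 37.9%, or 13% and 15.1% after thinning. Of 8 oligodendrocyte precursor markers, *Olig2*, *Gpr17* and *Neu4* had 0 UMIs in both libraries, *Olig1* and *Sox10* had 1 UMI in all, and *Pdgfra* had 4 control and 1 knockout UMIs. *Lhfpl3* alone reached 52 and 23 UMIs, and summed over the list the level was 9.39 CPM in the control and 9.76 in the knockout. No CR barcode in either library held 2 precursor markers. Among 6 mural markers, *Kcnj8* and *Acta2* had 0 UMIs, *Vtn* had 1, *Pdgfrb* 6 and *Abcc9* 13 in all, whereas *Rgs5*, at 535 and 210 UMIs, was spread over 31.8% and 30.3% of barcodes. The mural list summed to 83.5 and 77.4 CPM in CR barcodes, nearly all of it *Rgs5*, and its part in the *Cspg4* values was not tested.

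*Cspg5*, or neuroglycan C, a small neuronal core with an EGF-like domain, gave 165 UMIs (25 CPM) in the control and 67 UMIs (24.2 CPM) in the knockout. A *Cspg5* UMI was in 13.3% of control and 15.4% of knockout barcodes. Its level was close between the libraries and also close to the level outside cells, as given below.

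*Ptprz1*, a receptor phosphatase of glia and glial precursors that binds pleiotrophin, was almost missing from CR cells. It had 22 control UMIs in 4 barcodes, and 19 of them came from 1 barcode of 3569 UMIs. That barcode also held 10 of the 12 control UMIs of *Bcan*, 10 of the 165 of *Cspg5* and 38 UMIs of 5 astrocyte markers, beside 11 *Reln* and 2 *Trp73* UMIs. Over all CR barcodes the 7 astrocyte markers summed to 10.6 CPM in the control library and 5.78 CPM in the knockout library. In the knockout *Ptprz1* had 0 UMIs in 390 barcodes, which at 3 counts allows up to 0.769% of barcodes with a UMI and sets no limit on cells that express it. Without the barcode with astrocyte markers, 3 control UMIs of *Ptprz1* remained, so the libraries cannot be compared for it at this depth.

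The lecticans are the large aggregating cores that link hyaluronan to tenascins, and *Ncan*, the nervous system lectican of development, led them. *Ncan* had 238 UMIs in the control (36.1 CPM, 31.6 to 40.9) and 112 in the knockout (40.5 CPM, 33.3 to 48.7). The share of barcodes with an *Ncan* UMI was 20.2% and 20.8%, or 7.18% and 9.74% after thinning. The richest control barcode for *Ncan* held 9 of its UMIs and 6 UMIs of 2 astrocyte markers, and it was 1 of 2 control barcodes, against 0 in the knockout, with at least 2 such markers. *Vcan*, the versican core found early in development and in precursors, was lower, with 65 control UMIs (9.85 CPM, 7.60 to 12.5) and 42 knockout UMIs (15.2 CPM, 10.9 to 20.5). *Vcan* reached 5.28% of control and 8.46% of knockout barcodes, at most 3 UMIs in each. *Acan*, the aggrecan core of perineuronal nets, had 19 and 11 UMIs in 18 and 11 barcodes. *Bcan*, the brevican core of astrocytes, had 12 UMIs in 3 control barcodes and 2 UMIs in 2 knockout barcodes.

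The syndecans divided sharply. *Sdc3*, the neural syndecan, gave 427 control UMIs (64.7 CPM, 58.7 to 71.1) and 222 knockout UMIs (80.3 CPM, 70.1 to 91.5). *Sdc2* gave 413 control UMIs (62.6 CPM, 56.7 to 68.9) and 168 knockout UMIs (60.7 CPM, 51.9 to 70.6). A UMI of *Sdc3* was in 31.5% of control and 38.5% of knockout barcodes, and one of *Sdc2* in 29.4% and 28.2%. In the control the levels of *Sdc3*, *Sdc2* and *Cspg4* had overlapping intervals, so their order is not fixed, and in the knockout *Sdc2* lay below *Sdc3*, again with overlap at 70.1 to 70.6 CPM. *Sdc4*, which shares part of the tail bases printed above, had 2 control UMIs and 1 knockout UMI, and none of 1003 or 390 barcodes held more than 1.

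**Figure D1:**
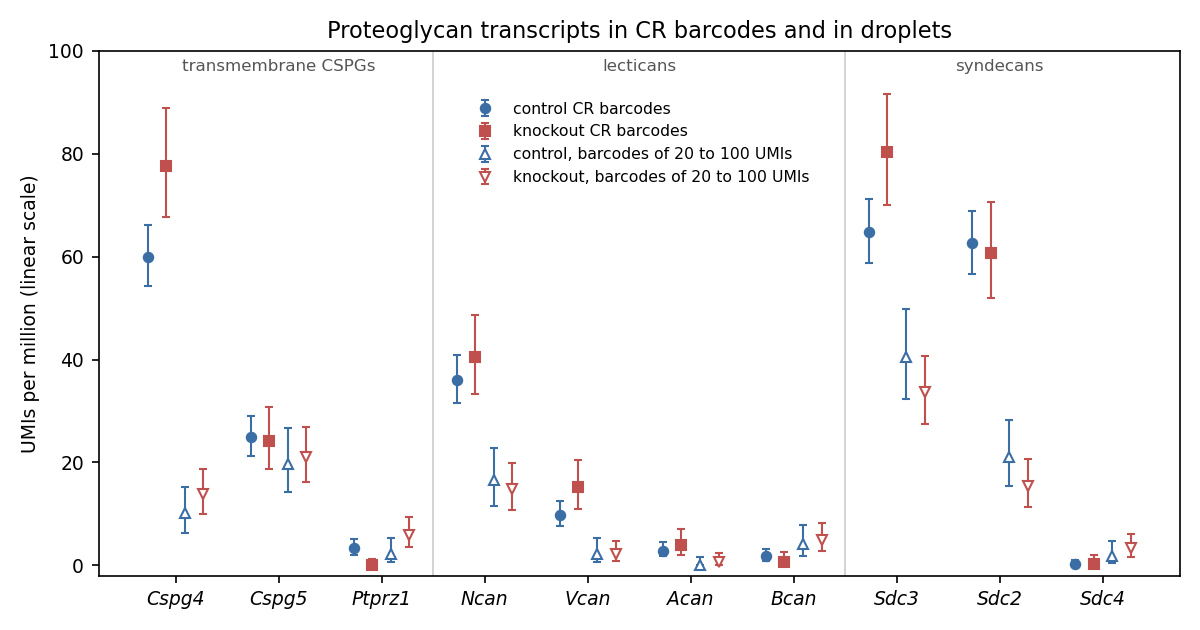
The plot gives CPM on a linear axis for each gene, with filled points for CR barcodes (blue, control; red, knockout), open points for barcodes of 20 to 100 UMIs, and bars for exact 95% Poisson intervals. *Cspg4*, *Sdc3*, *Sdc2*, *Ncan*, *Vcan* and *Acan* lie above their open points in both libraries, and *Cspg5* lies beside its own. *Ptprz1*, *Acan*, *Bcan* and *Sdc4* stay under 4 CPM in CR barcodes.

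Free RNA was read from barcodes of 20 to 100 UMIs, too small for cells, 29040 in the control (median 89 UMIs) and 75813 in the knockout (median 44 UMIs). *Cspg4* was 10.1 and 13.8 CPM there, so its level in CR barcodes was 5.94-fold (3.87 to 9.59) higher in the control and 5.62-fold (4.03 to 8.03) higher in the knockout. *Vcan*, at 2.29 and 2.30 CPM, was 4.29-fold (1.75 to 13.7) and 6.59-fold (2.93 to 17.4) higher in CR barcodes. *Acan* had 0 control and 2 knockout UMIs in the small barcodes. Its level in CR barcodes was at least 2.09-fold higher in the control, with that 0 set to 3 counts. In the knockout it was 6.04-fold (1.32 to 56.1) higher, from 11 UMIs in CR barcodes. *Sdc2* was 2.96-fold and 3.93-fold higher, *Ncan* 2.18-fold and 2.73-fold, and *Sdc3* 1.60-fold (1.27 to 2.04) and 2.39-fold (1.88 to 3.05). *Sdc3* thus had the highest free level of the set, 40.4 and 33.6 CPM. *Cspg5*, at 19.7 and 21.1 CPM, was the exception, with ratios of 1.27 (0.901 to 1.82) and 1.15 (0.804 to 1.65), so no enrichment in CR barcodes was detectable at this depth. *Bcan*, *Ptprz1* and *Sdc4* ran the other way in the knockout, where *Bcan* was 0.146 (0.0163 to 0.630) and *Sdc4* 0.110 (0.00253 to 0.772) of the free level. Of the CR markers, *Reln* was 957.0 and 880.3 CPM in the small barcodes, far below its level in CR barcodes. *Trp73* was 823.4 and 853.9 CPM there, above its 471.1 and 491.7 CPM in CR barcodes. A ratio near or below 1 therefore does not tell whether CR cells express a gene. If each CR barcode took up free RNA at the median size of these small barcodes, 1.53 of the 165 control UMIs of *Cspg5* and 3.13 of the 427 of *Sdc3* would come from it, and less than 1% of the UMIs of each of the 6 main genes in either library. The control values rest on barcodes of 50 to 100 UMIs, where *Cspg4* was 10.2, *Sdc2* 20.4 and *Sdc3* 39.8 CPM. Control barcodes of 10 to 50 UMIs numbered 1276 and held 1 *Cspg4*, 2 *Sdc2* and 2 *Sdc3* UMIs among 28004 (35.7, 71.4 and 71.4 CPM) and none of the other 7 genes, too few to compare. The sort left too few cells of another type to serve as a second background, since only 8 control and 16 knockout barcodes of at least 2000 UMIs had fewer than 5 *Reln* UMIs. In the 16 knockout barcodes *Ptprz1* had 12 UMIs in 4 barcodes. Astrocyte markers there gave 30 *Aldoc*, 19 *Slc1a3*, 18 *Aqp4*, 10 *Gja1*, 2 *Aldh1l1*, 1 *Fgfr3* and 0 *Gfap* UMIs. *Sdc2* (8 UMIs, 168.8 CPM), *Cspg4* (6, 126.6), *Cspg5* (6, 126.6) and *Ncan* (5, 105.5) stood above their levels in CR barcodes. *Sdc3* (3, 63.3) and *Vcan* (0) stood below. In the 8 control barcodes *Cspg5* had 4 UMIs, *Sdc2* 1 and the other main genes 0. These counts are too few to compare.

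The comparison of knockout with control asks whether loss of CIC goes with another level of these cores. *Cspg4*, *Sdc3* and *Vcan* were higher in the knockout, each with an interval above 1, while *Sdc2*, *Cspg5* and *Ncan* had intervals that held 1. The share of all genes with an interval above 1 was not counted, so these interval calls have no background to be set against. The ratio was 1.30 (1.09 to 1.53) for *Cspg4*, 1.24 (1.05 to 1.46) for *Sdc3* and 1.54 (1.02 to 2.31) for *Vcan*. For *Ncan* it was 1.12 (0.889 to 1.41), for *Sdc2* 0.971 (0.807 to 1.16) and for *Cspg5* 0.969 (0.718 to 1.29). These 3 counting intervals lie below 1.54 but overlap that of *Vcan*, and a difference between genes was not tested. *Acan*, with 30 UMIs in all, had a ratio of 1.38 (0.594 to 3.06) and cannot be placed. A gene was counted as past the fold at a ratio of at least 1.5 or at most 1/1.5, among genes with at least 100 UMIs in both libraries together. Of the 6 members that had 100 UMIs, 1 (*Vcan*) was past the fold upward and 0 downward, where 2.73% of 9442 genes were past it upward and 1.66% downward. The other 4 members fell short of this minimum. The median log2 ratio of the 6 was 0.24, against 0.01 over all 9442 genes, and the summed 10 genes had a ratio of 1.14 (1.05 to 1.24). These genes were chosen with this contrast in view, so nothing further is read from those counts.

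**Figure D2:**
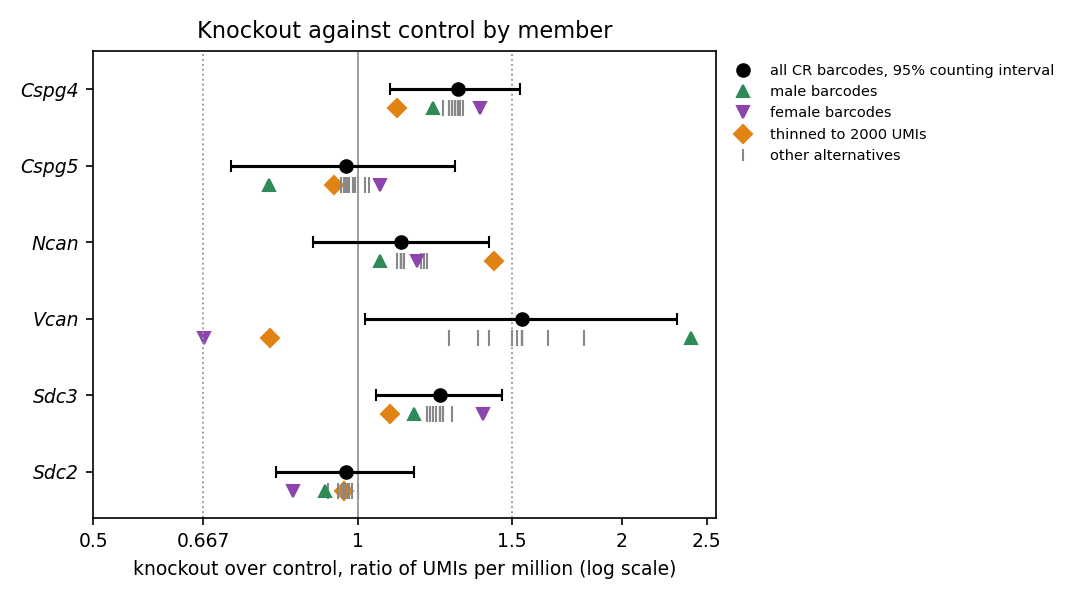
Black points show the knockout-to-control ratio of each gene with at least 100 UMIs on a log axis, with the exact 95% counting interval, and the marks under each are the ratios under the alternatives. Dotted lines stand at 1.5 and 1/1.5. *Cspg4*, *Sdc3* and *Ncan* stay above 1 under every alternative run, and *Vcan* runs from 0.669 in female barcodes to 2.40 in male barcodes.

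*Vcan* rested on the fewest molecules of the 6, and its ratio turned with the choice of barcodes. In barcodes with a Y-linked UMI and no *Xist* UMI (702 control, 194 knockout), it was 8.73 and 21 CPM, from 41 and 30 UMIs, a ratio of 2.40 (1.45 to 3.95). In barcodes with *Xist* and no Y-linked UMI (227 and 176), it was 14.6 and 9.79 CPM, from 21 and 12 UMIs, a ratio of 0.669 (0.300 to 1.42). The female control barcodes come from 1 mouse, by the labels. Thinning to 2000 UMIs gave 0.795, with a *Vcan* UMI left in 24 control and 8 knockout barcodes. *Cspg4* and *Sdc3* kept their direction in both sexes, with 1.22 (0.969 to 1.53) and 1.16 (0.926 to 1.45) in male and 1.38 (1.02 to 1.87) and 1.39 (1.03 to 1.87) in female barcodes. *Ncan* (1.06 in male and 1.17 in female barcodes) and *Sdc2* (0.918 and 0.845) did so too, with intervals that held 1. *Vcan* was past 1.5-fold in 11 of 16 alternatives. Fibroblasts often express *Vcan*, and of 5 fibroblast markers *Lum*, *Col1a2* and *Slc6a13* had 0 UMIs and *Col3a1* had 1 in all, while *Col1a1* had 56 control and 46 knockout UMIs (8.48 and 16.6 CPM).

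Barcodes with several UMIs of a gene were also counted. *Cspg4* stood at 2 or more UMIs in 71 control barcodes, or 7.08% (5.57 to 8.85%), and in 48 knockout barcodes, or 12.3% (9.22 to 16%). For *Sdc3* it was 91 control barcodes, or 9.07% (7.37 to 11%), and 49 knockout barcodes, or 12.6% (9.44 to 16.3%). *Ncan*, whose summed level differed little, had 2 or more UMIs in 2.69% (1.78 to 3.89%) of control and 6.15% (3.98 to 9.02%) of knockout barcodes. The intervals of *Cspg4* and *Ncan* did not overlap, for *Ncan* by a narrow margin (3.89% against 3.98%), and those of *Sdc3* did. Those of *Sdc2* (7.88% and 9.74%), *Cspg5* (2.29% and 1.79%) and *Vcan* (0.897% and 2.05%) overlapped as well. The share of all genes without overlap was not counted. The knockout barcodes were somewhat deeper, and the part of depth was not tested. The shares of barcodes with any UMI after thinning overlapped in their intervals, 10.9 to 15.2% against 11.7 to 19.1% for *Cspg4* and 10.2 to 14.3% against 9.89 to 16.8% for *Sdc3*.

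**Figure D3:**
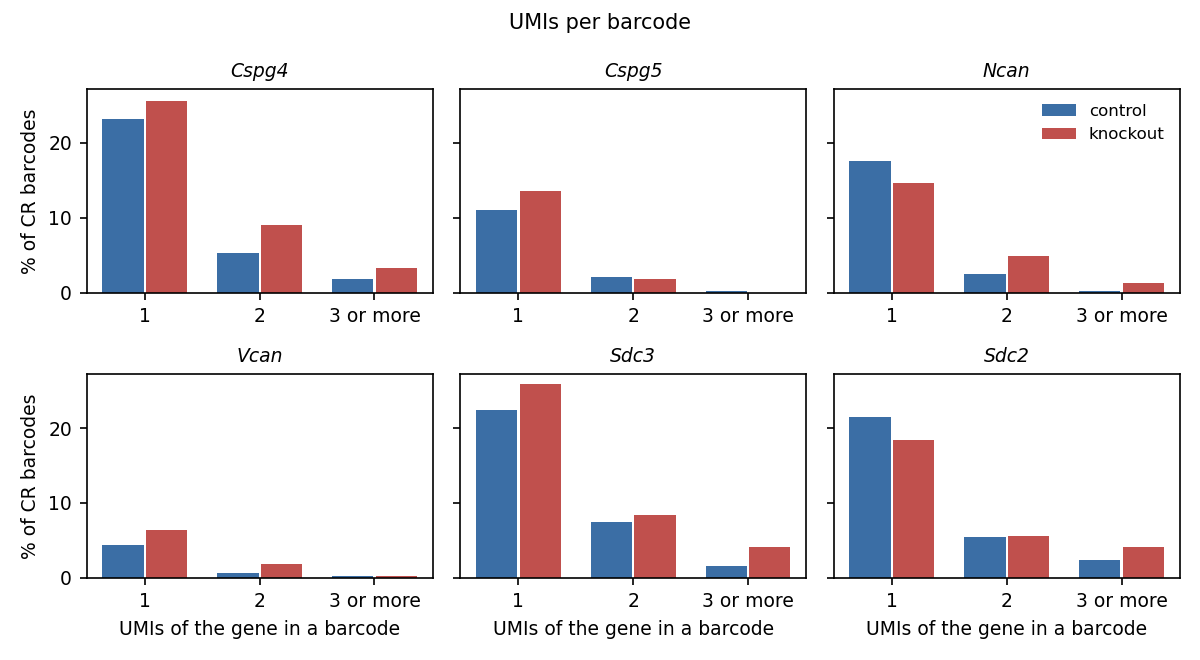
Bars give the percentage of CR barcodes (blue, 1003 control; red, 390 knockout) with 1, 2 and 3 or more UMIs of each gene. In all 6 genes most barcodes with a UMI have 1, and no *Cspg5* or *Vcan* bar for 3 or more exceeds 3 barcodes.

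*Etv4* and *Etv5* are known as genes that CIC represses, and the knockout barcodes were split by a UMI of either. It was found in 162 of them (median 7266 UMIs) and not in 228 (median 6210 UMIs). Deeper barcodes hold a UMI more often, and after thinning only 77 knockout barcodes held one, so the group without a UMI contains cells that may express both. *Cspg4* gave 109 UMIs (88.7 CPM) in barcodes with and 106 UMIs (68.9 CPM) in barcodes without such a UMI, a ratio of 1.29 (0.976 to 1.70). *Sdc3* was 80.6 and 80.0 CPM, a ratio of 1.01 (0.765 to 1.32), and *Sdc2* was 61.9 and 59.8 CPM, a ratio of 1.03 (0.753 to 1.42). *Ncan* was 36.6 and 43.6 CPM, a ratio of 0.841 (0.563 to 1.24). Of the members 4 had 100 UMIs over both groups, and 0 of them were past the fold, where 3.02% of 5226 genes were past it upward and 1.95% downward. Below that minimum, *Vcan* had 20 and 22 UMIs, with 1.14 (0.589 to 2.19), and *Cspg5* 25 and 42 UMIs, with 0.745 (0.435 to 1.25). When the barcodes were thinned to 2000 UMIs before the split, *Ncan* turned to 1.27 and *Cspg5* to 1.74, so neither has a settled direction here. After thinning only 38 knockout barcodes held an *Ncan* UMI and 18 a *Cspg5* UMI, and no interval was computed for these thinned ratios. They rest on a single random draw of UMIs, so these turns may come from the draw.

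Set against the control, the knockout barcodes without an *Etv4* or *Etv5* UMI had ratios of 1.15 (0.919 to 1.43) for *Cspg4* and 1.24 (1.00 to 1.51) for *Sdc3*. Those with such a UMI had 1.48 (1.19 to 1.83) for *Cspg4* and 1.25 (0.991 to 1.55) for *Sdc3*. Both comparisons share the control barcodes. The same split of the control, 87 barcodes with and 916 without such a UMI, gave *Cspg4* at 58.4 and 60.2 CPM, a ratio of 0.971 (0.679 to 1.35). Whether this ratio differed between the libraries was not tested.

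A smaller group of CR barcodes stood apart by energy genes. In 78 control and 29 knockout barcodes at least 2% of UMIs came from nuclear genes of the respiratory chain, and they were deeper, with medians of 13556 and 14508 UMIs. The limit cuts a range, since 52 and 20 barcodes lay between 1.5% and 2.5%. *Cspg4* was lower in this group in both libraries, 30.3 CPM against 64.6 CPM in the other control barcodes and 38 CPM against 84.3 CPM in the knockout, ratios of 0.468 (0.304 to 0.692) and 0.451 (0.248 to 0.761). *Sdc3* was lower in the control group, at 44.8 against 67.8 CPM, with 0.661 (0.465 to 0.917), and in the knockout it was 71.0 against 81.8 CPM, with 0.867 (0.562 to 1.29). *Ncan* was lower in the knockout, at 17.7 against 44.3 CPM from 7 and 105 UMIs, with 0.401 (0.157 to 0.855), and its control ratio was 0.819 (0.527 to 1.23). *Vcan* was lower in the control, at 2.24 against 11 CPM from 2 and 63 UMIs, with 0.203 (0.0241 to 0.765), and its knockout ratio was 0.812 (0.249 to 2.07). *Cspg5* and *Sdc2* had intervals holding 1 in both libraries. Depth moves with this split, and its part was not tested. The share of all genes with an interval off 1 in this split was not counted. Nothing here shows that these differences are particular to the proteoglycans.

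*Sdc2* also varied with the GABA receptor subunit gene *Gabrg3*, a split chosen after its values were seen. In the control it was 48.6 CPM in the 570 barcodes with a *Gabrg3* UMI and 83.9 CPM in the 433 without, a ratio of 0.580 (0.475 to 0.706). In the knockout it was 51.7 CPM in 230 barcodes with and 74.8 CPM in 160 without, a ratio of 0.691 (0.505 to 0.947). *Cspg5* was also lower in control barcodes with *Gabrg3*, at 21.3 against 30.6 CPM, with 0.695 (0.506 to 0.955), and in the knockout its ratio was 0.747 (0.449 to 1.25). *Sdc3* had ratios of 1.09 (0.894 to 1.34) and 1.14 (0.862 to 1.52), and the intervals of *Cspg4*, *Ncan* and *Vcan* held 1 in both libraries. The intervals of *Sdc2* and *Sdc3* were apart in the control and overlapped in the knockout, and the difference itself was not tested. How many of all genes differ by *Gabrg3* was not counted either, so these values have no background.

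**Figure D4:**
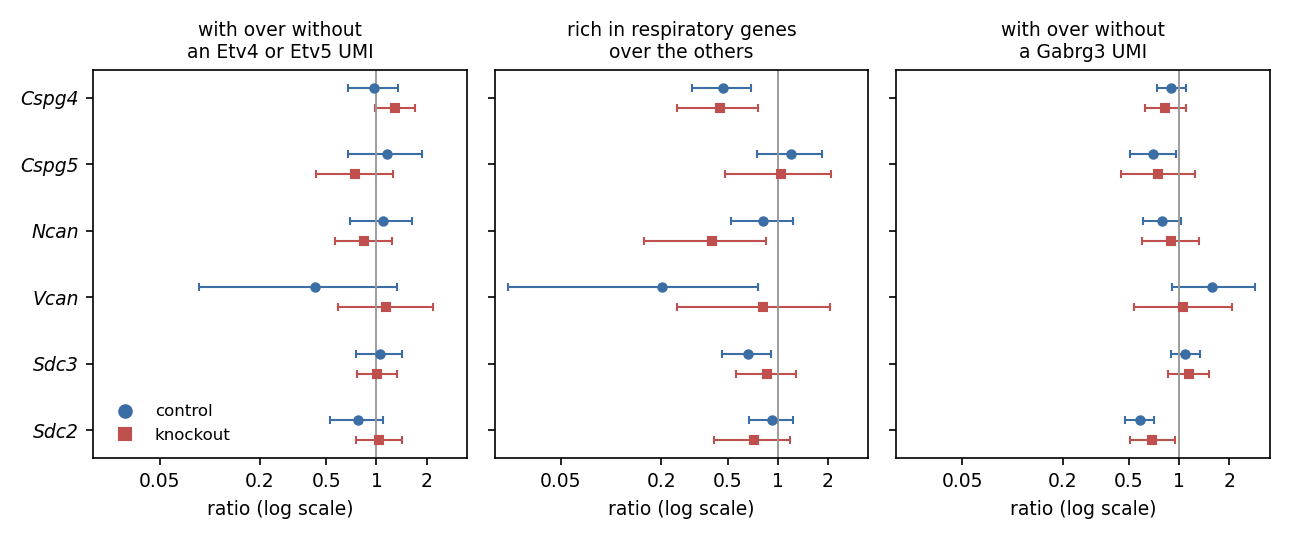
Ratios on a log axis, with exact 95% counting intervals, compare barcodes within the control (blue circles) and the knockout (red squares), by *Etv4* or *Etv5* UMI, by respiratory share and by *Gabrg3* UMI. *Cspg4* lies left of 1 in barcodes rich in respiratory genes (0.468 and 0.451), and *Sdc2* lies left of 1 in barcodes with *Gabrg3* (0.580 and 0.691). For these splits the share of all genes off 1 was not counted.

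The sugar chains, partners and proteases of these cores were read from 8 lists of 92 genes. CR cells had transcripts for other cores at far higher UMI levels than any of the 10. *App* and *Aplp2*, which occur in part as chondroitin sulfate proteoglycans, were 1730 and 681.5 CPM in the control and 1691 and 697.4 CPM in the knockout, and *Spock2*, a testican, was 615.3 and 709.3 CPM with a ratio of 1.15 (1.09 to 1.22). Of 9 such genes 4 had 100 UMIs, and 0 were past the fold. Among 11 other heparan sulfate cores, the glypican *Gpc1* led with 366.3 CPM in the control and 456.6 in the knockout, a ratio of 1.25 (1.16 to 1.34), ahead of *Agrn* (103.0 and 102.3 CPM) and *Sdc1* (48.8 and 44.5 CPM). Of these 5 had 100 UMIs and 0 were past the fold.

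The partners that build perineuronal nets were rare. Of the link proteins, *Hapln2* and *Hapln3* had 0 UMIs, *Hapln1* had 6 control and 2 knockout UMIs and *Hapln4* 0 and 2. The hyaluronan synthase *Has2* had 0 UMIs, and *Has1* stood at 2.88 and 2.89 CPM. Of these 9 genes 2 had 100 UMIs. *Tnr*, the tenascin that binds lecticans in nets, was 10.6 CPM in the control and 19.5 in the knockout, a ratio of 1.84 (1.27 to 2.66) from 70 and 54 UMIs that fell short of 1.5 in male barcodes (1.46), and *Tnc* was 24.5 and 18.8 CPM.

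Among 16 chondroitin sulfate enzymes, 10 had 100 UMIs and 3 of these were past the fold upward, beside 2.73% of 9442 genes. *Csgalnact1*, with 59 control and 45 knockout UMIs, lay close to the 100 UMI minimum. The lists were chosen with earlier results known, so nothing further is read from that count. The chain builders *Csgalnact1*, which starts the chain, and *Chpf2* were 8.94 and 19.7 CPM in the control and 16.3 and 29.6 CPM in the knockout, with ratios of 1.82 (1.21 to 2.73) and 1.51 (1.13 to 2.00). *Chst7*, a 6-O-sulfotransferase, was 20.3 and 40.1 CPM, a ratio of 1.98 (1.52 to 2.56). Of 16 alternatives *Csgalnact1* fell short of 1.5-fold in 4, at lowest 1.11, *Chpf2* in 5, at lowest 1.49, and *Chst7* in 1. *Chsy3* and *Ust*, the most abundant of the 16, did not follow them, at 499.9 and 459.2 CPM and at 416.4 and 387.2 CPM. *Chpf*, the next in level, was 62.1 and 82.4 CPM, a ratio of 1.33 (1.12 to 1.56), higher but short of the fold. Of the 16 genes 10 had 100 UMIs, 0 were past the fold downward, and the summed list had a ratio of 0.994 (0.953 to 1.04).

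The linkage enzymes make the short stem that both kinds of chain share. *B3gat3*, which adds its last sugar, was 42.4 CPM in the control and 66.5 in the knockout, a ratio of 1.57 (1.30 to 1.90). It fell short of 1.5-fold in 3 of 16 alternatives, at lowest 1.36 in female barcodes, and its level in droplets of 20 to 100 UMIs, 77.1 and 76 CPM, was above that in CR barcodes. *Fam20b*, the kinase of the stem, was 16.7 and 24.2 CPM with 1.45 (1.06 to 1.99), and *Xylt2*, which starts it, was 17.9 and 21 CPM. *Fam20b* too was higher in those droplets, at 40.8 and 33.9 CPM. All 6 had 100 UMIs and 1 was past the fold.

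Of 23 heparan sulfate enzymes, 13 had 100 UMIs, 0 were past the fold upward and 1 downward. That gene was *Hs3st4*, a 3-O-sulfotransferase, at 43.0 CPM in the control and 24.2 in the knockout, a ratio of 0.563 (0.425 to 0.737). The leading enzymes were the 6-O-sulfotransferase *Hs6st3* (1608 and 1537 CPM), *Hs3st5* (1025 and 1084 CPM) and *Ndst3* (266.9 and 258.1 CPM), and the summed list had a ratio of 1.01 (0.984 to 1.03).

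The list of ligands and receptors was led by 3 receptor phosphatases, and *Rtn4rl2* had 0 UMIs. *Ptprs*, the receptor phosphatase that binds both kinds of chain, was 940.5 and 979.1 CPM, *Ptprf* was 332.6 and 333.0 CPM and *Ptprd* was 247.7 and 274.0 CPM. The PDZ partners of the syndecan tail, named here after their values were seen, were 86.5 and 75.9 CPM for *Cask* and 88.8 and 76.6 CPM for *Sdcbp*, which encodes syntenin. *Rtn4r*, a Nogo receptor, was 76.2 and 91.1 CPM, a ratio of 1.20 (1.02 to 1.39), and *Cntn1*, a contactin, was 59.2 and 45.6 CPM, a ratio of 0.769 (0.624 to 0.942). Of these 11 genes 9 had 100 UMIs and 0 were past the fold. Among 7 proteases of the ADAMTS family, several of which cut lecticans, *Adamts15* had 61.2 and 55.3 CPM and was the only gene with 100 UMIs, while *Adamts1* and *Adamts8* stayed below 3 CPM. Over all lists 50 genes had 100 UMIs, 5 were past the fold upward and 1 downward, beside the 2.73% and 1.66% of all genes, and their median log2 ratio was 0.05. Of these 50 genes 4, *B3gat3*, *Fam20b*, *Chsy1* and *Sdcbp* (166.1 and 151.0 CPM), had a higher level in the small droplets than in CR barcodes in both libraries. The CR marker *Trp73* did so too, as given above.

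**Figure D5:**
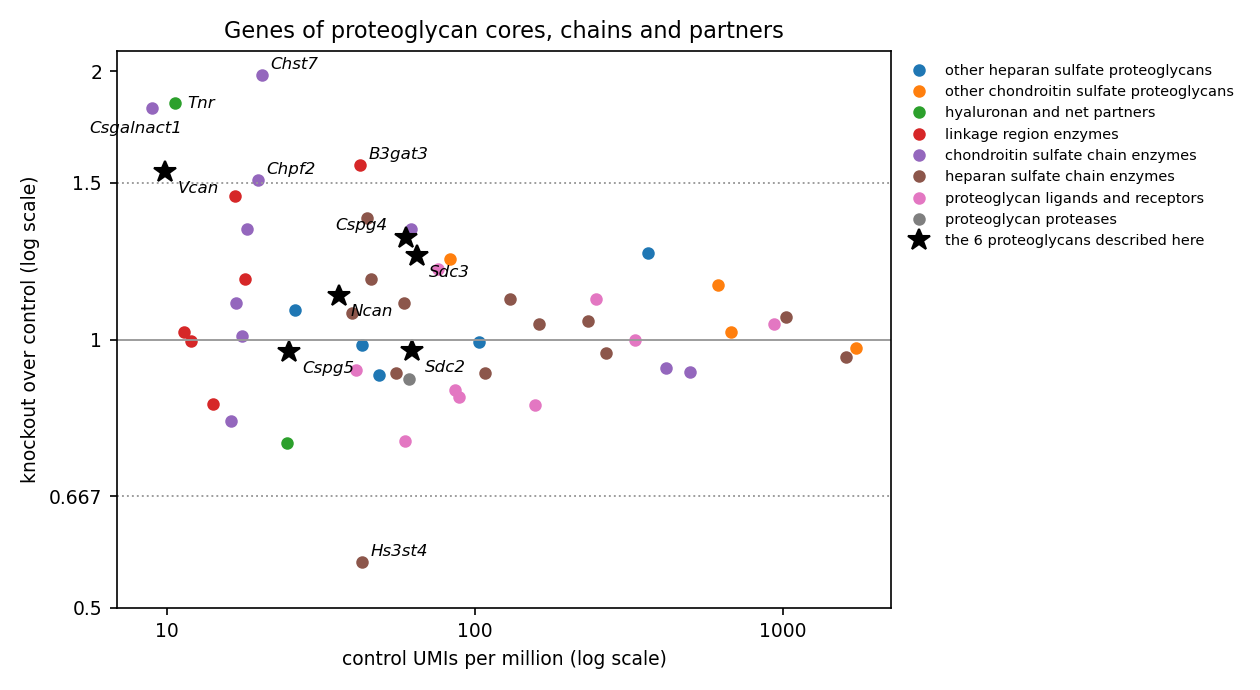
Each point is a gene with at least 100 UMIs, placed by its control CPM and its knockout-to-control ratio, both on log axes, colored by list, with stars for *Cspg4*, *Cspg5*, *Ncan*, *Vcan*, *Sdc2* and *Sdc3*. *Chst7*, *Tnr*, *Csgalnact1*, *B3gat3* and *Chpf2* lie above the dotted line at 1.5 and *Hs3st4* lies below that at 1/1.5, all under 50 CPM in the control.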

How the data were processed

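The authors deposited raw UMI counts for every barcode of 2 libraries (10x 3′ v3.1, sorted tdT-positive cells), without normalization or cell calling, with 16336796 UMIs in the control and 6777071 in the knockout. The methods name Cell Ranger on mm10, the submitters' processing notes Cell Ranger 8.0.1 and mm39, and the matrix header another version; intron and strand settings are not given in the sources used here. Counts were summed per group of barcodes (Python 3.11.15, numpy 2.4.6, scipy 1.17.1) and scaled to CPM, with mt-, Rpl, Rps and Mrp genes left out of the total. Ratios have exact conditional (Clopper-Pearson) 95% intervals, levels exact Poisson and shares exact binomial ones. A ratio against 0 was not given at or under 3 counts. Doublets were not removed, and Scrublet (scanpy 1.11.5) was an alternative. Of 32285 gene identifiers, 32158 were found in GENCODE M21.

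The members and lists were chosen with earlier results of these data known. Named were all members, the 3 genes with the highest control CPM in each list, those past the fold (up to 5 a list, by the interval bound nearer to 1), and the checks *Cic*, *Etv4*, *Etv5*, *Reln* and *Trp73*; other genes were named after their values were seen. *Trp73* was 471.1 CPM in control and 491.7 CPM in knockout barcodes. Ratio and thinning steps were tested on simulated data. Thinning was a single random draw with a fixed seed, and how far thinned values vary between draws was not measured. The alternatives covered scaling, barcode weight, depth, UMI and *Reln* minimums, quality limits, doublets, free RNA, sex, glial markers and respiratory share. Splits by *Cck*, *Grik1* and *Gabrg3* and the alternatives for pathway genes were added after seeing the data.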

Additional observations from a re-analysis of the deposited data

How the results depend on the processing

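The number of members past the fold, 1 in the comparison of the libraries, fell to 0 under the mean over barcodes of CPM, after thinning to 2000 UMIs, with quality limits at 3 median absolute deviations, without barcodes rich in respiratory genes and in female barcodes, and was 1 in the other 11 alternatives. In male barcodes that 1 was *Vcan*, whose 41 control and 30 knockout UMIs there fall short of the 100 UMI minimum. In female barcodes *Vcan* was just short of the lower limit, at 0.669. It turned below 1 there and at 0.795 after thinning, was 1.27, 1.37 and 1.41 with the mean over barcodes, the quality limits and without respiratory-rich barcodes, and 2.40 in male barcodes. The cause was not tested. The ratio of the summed members ran from 1.05 (female barcodes) to 1.19 (without barcodes with 2 markers of another cell type) over 16 alternatives. It was 1.12 in male barcodes, so both sexes lay below the 1.14 of all barcodes. Female barcodes were 227 of 1003 in the control and 176 of 390 in the knockout, and the part of this mix was not tested. Female control barcodes also held 20 of the 22 control *Ptprz1* UMIs, most of them from the barcode with astrocyte markers. The marker setting kept 972 of 1003 control and 377 of 390 knockout barcodes. The barcodes left out match in number those of the oligodendrocyte, astrocyte, mural, endothelial and microglia lists alone. At least 2 pyramidal neuron markers were in 35 control and 19 knockout barcodes, and at least 2 granule neuron markers in 8 and 3. The marker setting should therefore not be read as removing barcodes with neuronal markers. *Cspg4* ran from 1.11 to 1.38 and *Sdc3* from 1.09 to 1.39, lowest after thinning and highest in female barcodes. *Ncan* ran from 1.06 in male barcodes to 1.43 after thinning, *Sdc2* from 0.845 to 1.00 and *Cspg5* from 0.792 to 1.06. Across the *Etv4* and *Etv5* split the number past the fold was 0 under 8 alternatives, among the 4 members counted. *Cspg4* ran from 1.21 to 1.44 in the knockout barcodes, and thinning turned *Ncan* from 0.841 to 1.27 and *Cspg5* from 0.745 to 1.74. Of the pathway genes past the fold, *Csgalnact1* fell short of it with the mean over barcodes (1.20), after thinning (1.11), without respiratory-rich barcodes (1.33) and in female barcodes (1.28). *B3gat3* did so with the mean over barcodes (1.47), the quality limits (1.44) and in female barcodes (1.36), *Tnr* and *Chst7* in male barcodes (1.46 and 1.45), and *Chpf2* in 5 alternatives, at lowest 1.49 with at least 5000 UMIs. *Hs3st4* was past it in all 16, from 0.359 to 0.629. Depth left *Acan*, *Bcan*, *Ptprz1* and *Sdc4* short of 100 UMIs. With 1 library per genotype, no library could be left out. No paired analysis was possible because each genotype has 1 library.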

Other observations

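Splits of the CR barcodes by *Cck* and by *Grik1* were also made after the data were seen. *Sdc2* was higher in barcodes with a UMI of *Grik1*, a kainate receptor subunit gene, at 76.2 CPM against 59.0 CPM in the control, a ratio of 1.29 (1.03 to 1.62), and at 93.2 CPM against 52.9 CPM in the knockout, a ratio of 1.76 (1.24 to 2.47). The other main cores had intervals that held 1 in both libraries for this split, except *Vcan* in the control, at 4.35 CPM with and 11.3 CPM without *Grik1*, a ratio of 0.386 (0.136 to 0.890). By *Cck*, the gene of the neuropeptide cholecystokinin, the 6 main cores had intervals that held 1 in both libraries. For neither split was the share of all genes with an interval off 1 counted.

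*Sdc2* was 80.2 CPM in female and 56.4 CPM in male control barcodes, a ratio of 1.42 (1.13 to 1.77), and 67.7 and 51.8 CPM in the knockout, a ratio of 1.31 (0.944 to 1.81). The female control barcodes come from 1 mouse, so sex and animal cannot be told apart there. How many of all genes differ in this way was not counted.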
